A study of Mus musculus with 14 samples.

Results

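Peptides that are shown to CD8 T cells on MHC class I molecules pass through a short chain of proteins, and 9 mouse genes of that chain were followed here by their symbols: H2-K1 and H2-D1 (the heavy chains), B2m (the light chain), Tap1, Tap2 and Tapbp (peptide transport and loading), Psmb8 and Psmb9 (proteasome subunits) and Nlrc5 (a regulator of class I transcription). They are 9 of the 23284 genes listed in each of the 2 expression tables, and each of them was present once in both tables. The rule takes genes by name and uses no measured value.

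RNA-seq was performed on 14 libraries of mouse mammary gland epithelial cells. EpH4 is the parental line, and EpRas is its derivative transformed with H-RasG12V. In the first table, EpH4 and EpRas cells were left untreated or received TGF-β (TGF-β3, 1 ng/ml) over 48 h, with 2 libraries in each of the 4 groups. In the second table, EpRas cells carried a negative control siRNA (siNC) or 1 of 2 siRNA pairs against Etv4 and Etv5 (siEtv4/5_1 and siEtv4/5_2), again without and with the same dose and time of TGF-β, with 1 library for each of the 6 conditions. EpH4 cells were grown in 10% and EpRas cells in 4% fetal bovine serum, so that the line, the oncogene and the serum cannot be told apart in any comparison of the lines, and EpRas stands for Ras transformation as 1 derived line. Levels are given in FPKM, which by its name divides the fragments assigned to a gene by its transcript length and by the mapped total.

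In class I presentation, the proteasome cuts cytosolic proteins into peptides. In the immunoproteasome, Psmb8, Psmb9 and Psmb10 take the places of the constitutive catalytic subunits Psmb5, Psmb6 and Psmb7. The TAP1/TAP2 transporter moves the peptides into the endoplasmic reticulum, tapasin (encoded by Tapbp) bridges TAP and the empty class I molecule, and the heavy chain, once bound to β2-microglobulin and a peptide, travels to the cell surface. Most of these genes respond to interferons, in part through Irf1, and the promoters of the heavy chains and of B2m carry an SXY module at which RFX, CREB/ATF and NF-Y proteins assemble with NLRC5. Epithelial cells express the pathway at a basal level, and its loss or gain in transformed cells is a widely studied feature of immune evasion.

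The promoters of the 3 chain genes are shown because they share 2 boxes at the same spacing. RefSeq promoter windows (250 bases before to 50 after the start, GRCm38.p6) were matched for 7 of the 9 genes. Capitals mark TGACG (the core of the X2 box) and ATTGG (the Y box, an inverted CCAAT) with 20 bases between them, and each sequence is read 5′ to 3′ on the strand of its gene.
H2-K1: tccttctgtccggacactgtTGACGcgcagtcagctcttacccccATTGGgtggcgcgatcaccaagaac
H2-D1: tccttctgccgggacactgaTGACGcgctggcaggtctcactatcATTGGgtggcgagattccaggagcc
B2m: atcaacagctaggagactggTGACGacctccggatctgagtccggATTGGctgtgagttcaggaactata
The windows lie at chr17:34000339-34000408 (minus strand), chr17:35262973-35263042 (plus strand) and chr2:122147589-122147658 (plus strand), and the X2 core begins 101 and 78 bases before the annotated start of H2-D1 and B2m. For H2-K1 it begins 41 and 55 bases before 2 annotated starts, both of which lie inside the outermost bounds of the gene given below. The pattern TGACGNNNNNNNNNNNNNNNNNNNNATTGG, searched on both strands, was held by 31 of 32851 promoter windows (0.0944%), and H2-M3, another class I heavy chain, was among them. The spacing was read from the 3 promoters shown and then searched. Most genes with a match, Calu, Nasp and Per1 among them, bear no class I name. The windows of Tap1, Tapbp, Psmb8 and Psmb9 held no match, which says only that these letters are not in these windows. The interferon regulatory factor pattern (GAAA, any 2 bases and GAAA again, searched on both strands) was found 139 bases before the start of B2m and in 3.44% of all windows, and in none of the other 6 matched members.

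Of the 9 genes, 7 lie on chromosome 17, in the mouse MHC, and 4 of these form one cluster. Psmb9 (chr17:34182030-34187330) and Tap1 (chr17:34187556-34197225) are transcribed away from each other from a shared interval, followed by Psmb8 (chr17:34198195-34201454) and Tap2 (chr17:34204479-34216321). Tapbp (chr17:33919478-33929290), H2-K1 (chr17:33996012-34000619) and H2-D1 (chr17:35263094-35267497) lie farther away, B2m is on chromosome 2 (chr2:122147687-122153082) and Nlrc5 on chromosome 8 (chr8:94434335-94527272). The interval between Psmb9 and Tap1 is shown because these neighbours, which start from it in opposite directions, differed between the lines to unlike degrees without TGF-β and were both called lower in EpRas cells with it. Capitals mark a TGACG on the plus strand of chr17:34187331-34187555.
Psmb9 to Tap1: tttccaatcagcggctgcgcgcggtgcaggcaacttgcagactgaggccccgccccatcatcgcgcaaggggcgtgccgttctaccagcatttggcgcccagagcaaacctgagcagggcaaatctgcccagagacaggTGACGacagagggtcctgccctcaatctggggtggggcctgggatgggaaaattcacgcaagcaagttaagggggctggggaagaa

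The libraries were first checked against their labels. Epithelial markers (10 genes, among them Cdh1, Epcam and the keratins) summed to 2713 to 10385 FPKM per untransfected library, with Krt19 listed at 0 in the EpH4 libraries. In the same libraries, 11 markers of leukocytes and dendritic cells summed to 2.03 to 8.54 FPKM. Of these, Ptprc, Itgam, Itgax, Cd52 and Tyrobp were at 0 in all 8 libraries, while Cd68 reached 7.13 and Csf1r 6.23 FPKM. In the siRNA libraries the epithelial markers summed to 4689 to 6038 FPKM and the leukocyte and dendritic cell markers to 3.31 to 11.6 FPKM. The largest relative depth of a library, read from the steps of low FPKM values, was 2.23 times the smallest among the untransfected and 1.74 times among the siRNA libraries. The 2 EpRas libraries with TGF-β agreed least across the genes tested (Pearson's r of log2(FPKM + 1) across genes 0.912, against 0.957 to 0.982 in the other groups). In these bulk RNA samples, fewer cells that express a gene and less RNA in each cell cannot be told apart. Groups were compared with limma on log2(FPKM + 1), and differences below are on this scale, which understates the change of low genes. A gene was called at a Benjamini-Hochberg adjusted p under 0.05 over the 9100 genes that reached 5 FPKM in any library, and 8 of the 9 members reached it.

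In EpRas cells, Psmb8, Psmb9 and Tap2 were lower than in EpH4 cells in both conditions, and Tap1 and Tapbp were called lower with TGF-β, while none of the class I chains was called lower. Without TGF-β, 3 of the 8 tested members were called lower (Psmb8, Psmb9 and Tap2), 1 was called higher (H2-D1) and 4 were not called, beside 9.11% of all tested genes called lower and 8.45% called higher. With TGF-β, 5 of 8 were called lower (Psmb8, Psmb9, Tap1, Tap2 and Tapbp) and none higher, beside 12.3% and 8.92% of all tested genes. Psmb8 and Psmb9 reached 5 FPKM in EpH4 libraries only, so that they entered the test through the line in which they were high, and these counts and medians are given as a description. The median difference of the members was -0.63 without and -1.96 with TGF-β, and that of all tested genes was -0.0031 and -0.0077. Over all 8 libraries, each of the 4 EpRas libraries was below each of the 4 EpH4 libraries for 5 of the 8 members (Psmb8, Psmb9, Tap1, Tap2 and Tapbp) and above them for 0, beside 15.1% and 12.7% of all tested genes. Both comparisons use the same lines, so that the second is not an independent replicate of the first.

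**Figure D1:**
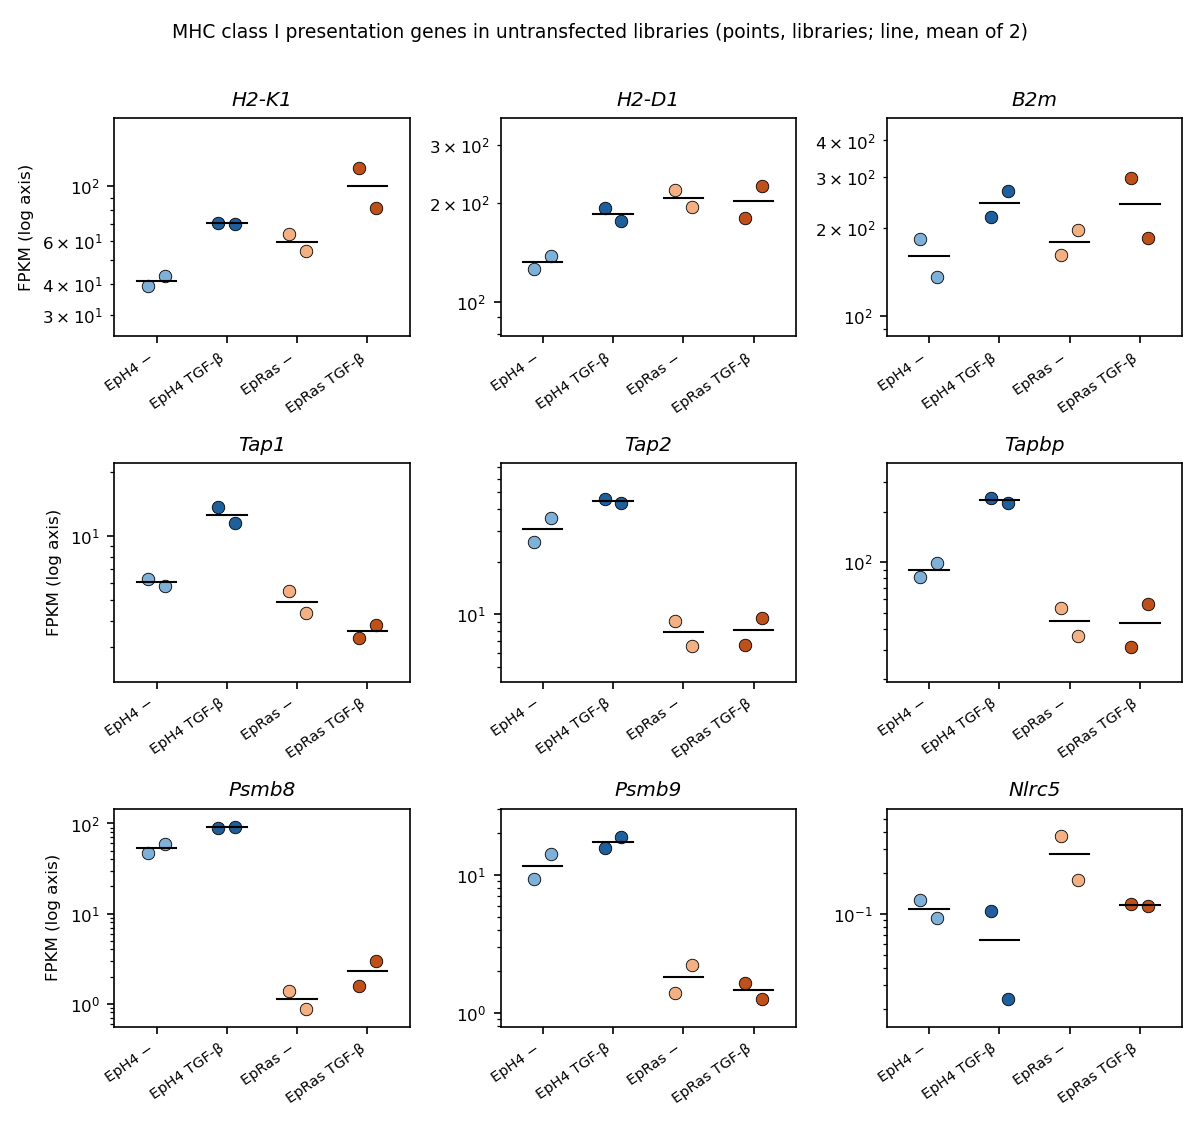
FPKM of the 9 genes (log axes, 1 panel per gene) in the 8 untransfected libraries. Points are libraries, coloured by group, and the line is the mean of the 2 libraries. Psmb8, Psmb9, Tap1, Tap2 and Tapbp lie lower in every EpRas than in any EpH4 library, whereas H2-D1 and B2m stay between 126 and 298 FPKM in all 8.

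The heavy chains and the light chain, which together form the class I molecule, were abundant in both lines. H2-D1 had 126 and 138 FPKM in untreated EpH4 cells, 192 and 176 FPKM with TGF-β, 219 and 194 FPKM in untreated EpRas cells, and 180 and 225 FPKM in TGF-β-treated EpRas libraries. The untreated EpH4 libraries were the lowest, and the treated EpRas libraries overlapped both remaining groups. H2-D1 was 0.64 ± 0.17 higher (SE, n = 2 per group) in untreated EpRas than in untreated EpH4 cells (limma, adjusted p = 0.0403), which is 1.57-fold by the mean FPKM, and with TGF-β the difference was 0.13 ± 0.17 (adjusted p = 0.625). The call in untreated cells was lost when any 1 of the 4 EpH4 libraries or either untreated EpRas library was left out (adjusted p 0.0862 to 0.182), with only these 2 groups in the fit (0.0598) and with the replicate block (0.0818), and it held without either of the TGF-β-treated EpRas libraries.

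H2-K1 had 39.3 and 43.3 FPKM in untreated EpH4 libraries, and 71.0 and 70.4 FPKM after TGF-β. In EpRas cells the values were 64.2 and 54.8 FPKM without and 118 and 81.8 FPKM with TGF-β. The untreated EpRas libraries lay between the untreated and the treated EpH4 libraries, and the treated EpRas libraries lay above all others. The difference between the lines was 0.52 ± 0.20 without TGF-β (adjusted p = 0.129) and 0.47 ± 0.20 with TGF-β (adjusted p = 0.144). Neither passed the threshold, and without the second TGF-β-treated EpRas library both did (adjusted p = 0.0444 and 0.0273).

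B2m had 184 and 136 FPKM in untreated EpH4 cells, 218 and 269 FPKM with TGF-β, 162 and 197 FPKM in untreated EpRas cells, and 298 and 185 FPKM in TGF-β-treated EpRas libraries. The lines overlapped in both conditions. The difference between the lines was 0.17 (95% confidence interval -0.46 to 0.81) without and -0.04 (-0.68 to 0.59) with TGF-β (adjusted p = 0.711 and 0.928), so that differences within these bounds could not be resolved. B2m lies wholly within Patl2, which is on the opposite strand, and Patl2 was listed at 0 in all 8 untransfected libraries. Reads of the heavy chains can be split among near-identical class I genes, and 6.87% of the 50-base words in the transcripts of H2-K1 and 13.9% of those of H2-D1 also occur in other genes, so that their levels carry this uncertainty. The reads were aligned to the mm10 reference, the H2 haplotype of EpH4 cells is not given in the sources used here, and a mismatch of the haplotype with the reference could alter the heavy chain levels.

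The other class I and class Ib heavy chains gave 0 calls in either comparison of the lines among 6 tested of 20 listed genes. Of all tested genes, 9.11% were called lower and 8.45% higher without TGF-β, and 12.3% and 8.92% with it. At an unadjusted p under 0.05 (limma) there were 3 of 6 in each comparison, beside 32.6% and 35.8% of all tested genes. Of the 6, 1 reached 5 FPKM in EpH4 libraries only and 1 in EpRas libraries only, so that these counts and the medians are given as a description. The median difference of the 6 genes was -0.39 without and -0.36 with TGF-β. H2-T23, which encodes Qa-1, a ligand of NK cell receptors, had 9.46 and 14.6 FPKM in untreated EpH4 and 7.01 and 8.62 FPKM in untreated EpRas cells (difference -0.54 ± 0.22, adjusted p = 0.139).

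Among the transport and loading genes, Tap2 was lower in EpRas cells in both conditions. Tap2, one subunit of the peptide transporter, had 26.1 and 35.6 FPKM in untreated EpH4 libraries, and 45.8 and 43.7 FPKM after TGF-β. In EpRas cells it had 9.16 and 6.57 FPKM without and 6.68 and 9.48 FPKM with TGF-β. The lines did not overlap. Tap2 was lower by 3.93-fold of the mean FPKM without TGF-β (-1.85 ± 0.24, adjusted p = 0.00259) and by 5.54-fold with TGF-β (-2.35 ± 0.24, adjusted p = 0.00057).

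Tap1, the other subunit, had 6.26 and 5.85 FPKM in untreated EpH4 cells and 5.50 and 4.34 FPKM in untreated EpRas cells, a difference of -0.26 ± 0.17 (adjusted p = 0.343). With TGF-β it had 13.6 and 11.5 FPKM in EpH4 and 3.32 and 3.83 FPKM in EpRas cells. The EpH4 libraries with TGF-β were the highest and the EpRas libraries with TGF-β the lowest of all 8. The lower level in EpRas cells with TGF-β was called (-1.57 ± 0.17, adjusted p = 0.00079, 3.51-fold by the mean FPKM). The ratio of Tap2 to Tap1 FPKM lay between 3.36 and 6.09 in the EpH4 libraries and between 1.51 and 2.47 in the untransfected EpRas libraries, and it reached from 1.03 to 3.49 in the siRNA libraries of EpRas cells, which come from the other table.

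Tapbp encodes tapasin, which holds the class I molecule at the transporter. It had 81.4 and 98.5 FPKM in untreated and 243 and 226 FPKM in treated EpH4 cells, against 53.3 and 36.2 FPKM in untreated and 30.9 and 56.0 FPKM in treated EpRas cells. Every EpRas library was below every EpH4 library. With TGF-β the difference was called (-2.46 ± 0.30, adjusted p = 0.00144, 5.40-fold by the mean FPKM). Without TGF-β it was -1.01 ± 0.30 and missed the threshold (adjusted p = 0.0609, and 0.0184 to 0.251 over 18 alternative analyses, of which 6 called it).

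**Figure D2:**
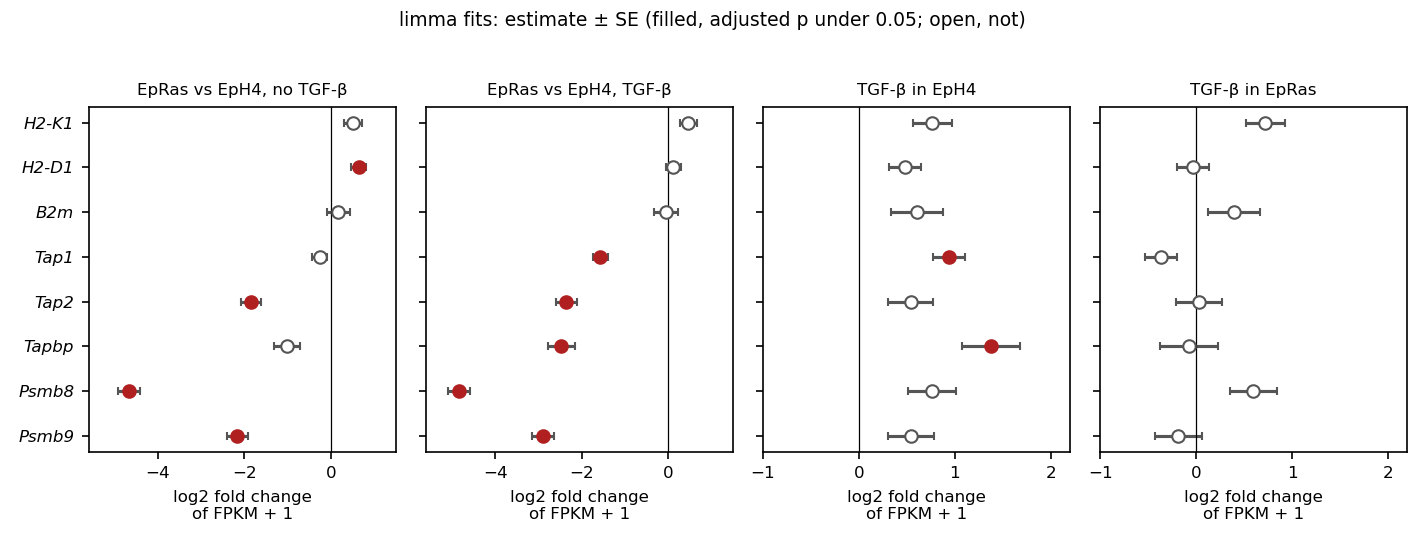
Differences of log2(FPKM + 1) with their SE for the 8 tested members in 4 comparisons. Each row is a gene, the x axis is the log2 difference (its range is wider in the comparisons of the lines), and filled points passed an adjusted p of 0.05. The comparisons of the lines reach from 0.64 for H2-D1 to -4.84 for Psmb8, while all 8 points lie above 0 for TGF-β in EpH4 cells.

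Of 12 tested other loading and trimming genes, 2 were called higher and 2 lower in EpRas cells without TGF-β, beside 8.45% and 9.11% of all tested genes, and 2 higher and 3 lower with TGF-β, beside 8.92% and 12.3%. Their median difference was 0.14 and -0.16, and Erap1 reached 5 FPKM in EpH4 and Lnpep in EpRas libraries only. Tapbpl, which encodes the tapasin-related editor TAPBPR, was -1.71 ± 0.17 (adjusted p = 0.000696) without and -2.82 ± 0.17 with TGF-β (adjusted p = 4.6e-05). Erap1, an aminopeptidase that trims peptides in the endoplasmic reticulum, had 9.60 and 8.96 FPKM in untreated EpH4 and 3.59 and 3.90 FPKM in untreated EpRas cells (-1.11 ± 0.15, adjusted p = 0.00748 with no filter on low values). Pdia3, a disulfide isomerase of the loading complex, was called higher in untreated EpRas cells (0.97 ± 0.20, adjusted p = 0.0181).

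The immunoproteasome subunits showed the widest separation of the lines among the 9 genes. Psmb8, which encodes the chymotrypsin-like subunit LMP7, had 47.0 and 59.4 FPKM in untreated and 89.6 and 91.1 FPKM in treated EpH4 cells. In EpRas cells it had 1.37 and 0.882 FPKM without and 1.55 and 3.0 FPKM with TGF-β. The highest EpRas library was thus far below the lowest EpH4 library. By the mean FPKM, Psmb8 was 47.3-fold lower in EpRas cells without TGF-β (-4.67 ± 0.25, adjusted p = 3.43e-05) and 39.7-fold lower with TGF-β (-4.84 ± 0.25, adjusted p = 2.8e-05). Since Psmb8 entered this test through its level in EpH4 cells, it was also read in the fit with no filter on low values (15244 genes), where it was called lower in both conditions (adjusted p = 0.000364 and 0.000246).

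Psmb9, which encodes the LMP2 subunit, had 9.29 and 14.1 FPKM in untreated and 15.6 and 18.9 FPKM in treated EpH4 cells, against 1.39 and 2.24 FPKM in untreated and 1.64 and 1.27 FPKM in treated EpRas cells. The lines did not overlap in either condition. Psmb9 was 6.46-fold lower by the mean FPKM without TGF-β (-2.17 ± 0.24, adjusted p = 0.00139) and 11.9-fold lower with TGF-β (-2.89 ± 0.24, adjusted p = 0.000247). Psmb9 likewise entered through EpH4 cells, and with no filter it was called lower in both conditions (adjusted p = 0.00438 and 0.00116). The calls for Tap2 in both conditions, and for Tap1 and Tapbp with TGF-β, held in each of the 8 analyses that left out 1 library, as did those for Psmb8 and Psmb9 under the filter that they passed through EpH4 cells.

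For Psmb8, Psmb9 and Nlrc5, the FPKM values were whole multiples of the value of 1 read, so that the numbers of reads could be recovered. Psmb8 rested on 282, 483, 388 and 587 reads in the EpH4 libraries and on 5, 6, 8 and 12 reads in the EpRas libraries. Psmb9 rested on 33, 68, 40 and 72 reads against 3, 9, 5 and 3 reads. Per unit of relative depth, the reads of untreated EpRas cells were 51.4-fold lower for Psmb8 (95% Clopper-Pearson interval 28.6 to 103) and 6.22-fold lower for Psmb9 (3.41 to 12.4). These intervals cover counting error only, and the few EpRas reads set how precisely the folds are known.

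The constitutive counterparts were not called different between the lines. Psmb5 lay between 88.0 and 165 FPKM, Psmb6 between 181 and 307 FPKM and Psmb7 between 120 and 167 FPKM in the untransfected libraries, with adjusted p from 0.316 to 0.922 over both comparisons, and only for Psmb7 with TGF-β did the groups not overlap (higher in EpRas libraries). Psmb8 therefore made up 26.5 to 50.5% of the summed FPKM of Psmb8 and Psmb5 in EpH4 libraries and 0.882 to 2.58% in untransfected EpRas libraries. Psmb9 made up 4.26 to 8.04% of Psmb9 plus Psmb6 in EpH4 and 0.493 to 1.13% in EpRas libraries.

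Psmb10, the remaining inducible subunit (MECL-1), is encoded outside the MHC. It had 63.1 and 57.5 FPKM in untreated EpH4 cells and 28.8 and 56.4 FPKM in untreated EpRas cells (-0.57 ± 0.30, adjusted p = 0.236). With TGF-β it had 97.4 and 102 FPKM against 44.4 and 34.9 FPKM and was called lower (-1.32 ± 0.30, adjusted p = 0.0191). Its share of Psmb10 plus Psmb7 was 28.8 to 42.8% in EpH4 and 16.1 to 25.7% in untransfected EpRas libraries, and 9.19 to 32.9% in the siRNA libraries. Over 20 proteasome genes tested besides the members, among them Psmb5, Psmb6, Psmb7 and Psmb10, 3 were called lower and 0 higher in each condition. Psmb10 was 1 of the 3 with TGF-β. Of all tested genes, 9.11% were called lower and 8.45% higher without TGF-β, and 12.3% and 8.92% with it. The medians of the 20 proteasome genes were -0.19 and 0.01. Psme2, a subunit of the interferon-inducible PA28 cap, was -1.29 ± 0.21 (adjusted p = 0.00654) without and -1.5 ± 0.21 (adjusted p = 0.00266) with TGF-β, and Pomp, the proteasome maturation protein, was called lower without TGF-β (-0.84 ± 0.20, adjusted p = 0.0261).

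**Figure D3:**
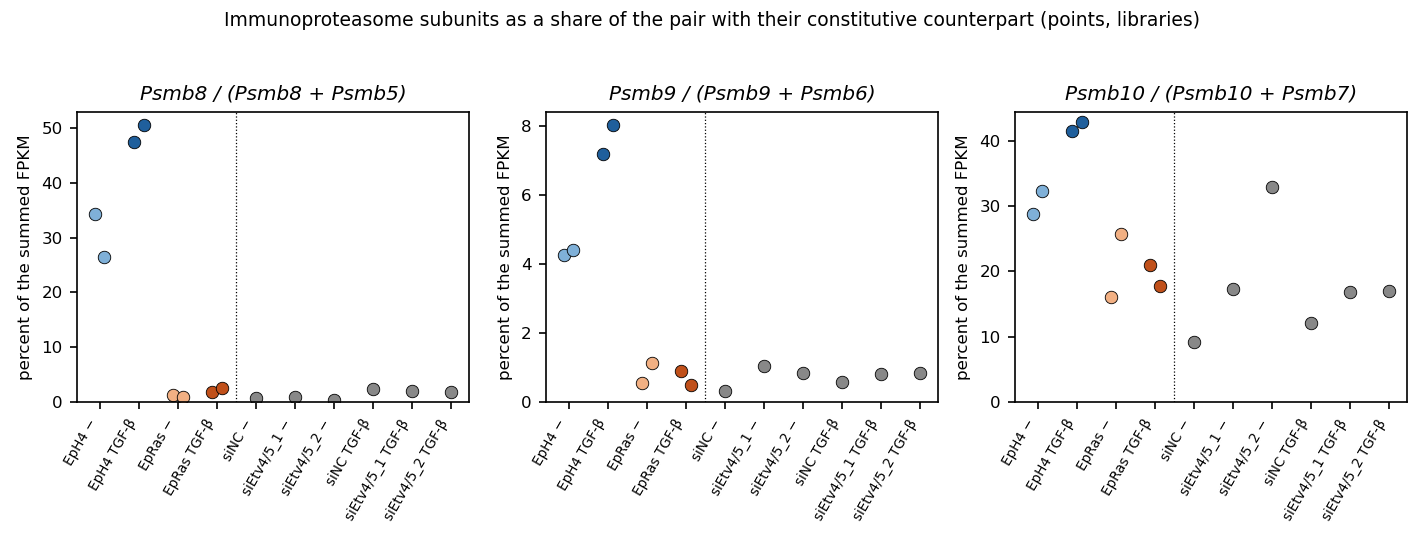
Share of each inducible proteasome subunit in the summed FPKM of the subunit and its constitutive counterpart (percent, linear axes from 0). Points are libraries, with the siRNA libraries in grey to the right of the dotted line. For Psmb8, the EpH4 libraries sit between 26.5 and 50.5% and the untransfected EpRas libraries between 0.882 and 2.58%.

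**Figure D4:**
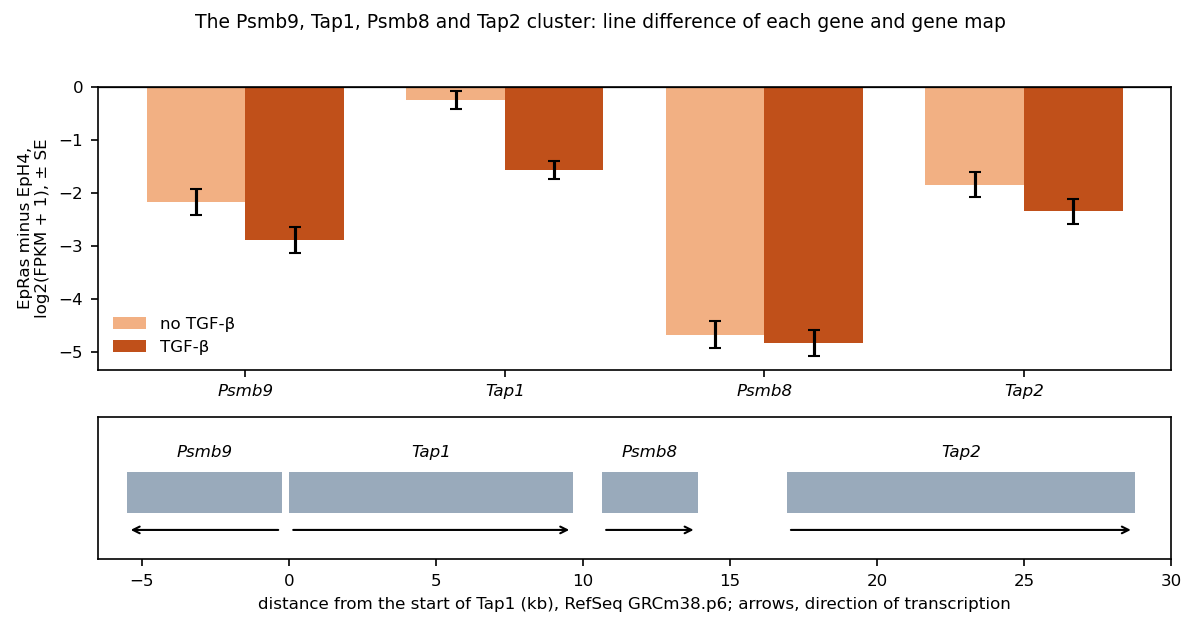
Difference between EpRas and EpH4 cells for the 4 neighbouring genes of the MHC cluster (upper panel, log2(FPKM + 1), bars from 0 with SE) above their map (lower panel, kb from the start of Tap1, arrows for the direction of transcription). Without TGF-β the differences are -2.17 for Psmb9, -0.26 for Tap1, -4.67 for Psmb8 and -1.85 for Tap2.

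Neighbours in the cluster thus differed in size. Psmb9 and Tap1, which start from the shared interval printed above, differed between the untreated lines by -2.17 and -0.26, and Psmb8, the next gene, by -4.67. With TGF-β both Psmb9 and Tap1 were called lower (-2.89 and -1.57). The GENCODE annotation places Gm20496, on the opposite strand, over 2139 bases of Psmb8 and 971 bases of Tap2 at their RefSeq positions. The GENCODE bounds of Psmb9, also on the opposite strand, reach over 209 bases of Tap1 at the RefSeq position given above. The libraries were directional, but whether the counting used the strand is not given in the sources used here, and the share of reads from overlapping genes was not tested.

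Nlrc5, the class I transactivator, was close to the limit of detection. It had 0.126 and 0.0931 FPKM in untreated and 0.105 and 0.0235 FPKM in treated EpH4 cells, and 0.373 and 0.178 FPKM in untreated and 0.118 and 0.114 FPKM in treated EpRas cells. These values rest on 5, 5, 3 and 1 reads in EpH4 and on 9, 8, 4 and 3 reads in EpRas libraries. The untreated EpRas libraries were the highest, the untreated EpH4 libraries overlapped both treated groups, and the treated EpRas libraries lay just above the treated EpH4 libraries. Over all libraries of a line, 24 EpRas and 14 EpH4 reads gave 2.18-fold more reads per relative depth in EpRas cells (1.08 to 4.55, counting error only). Nlrc5 did not reach 5 FPKM in any of the 14 libraries and was not tested.

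Regulators that act on class I genes included both lower and higher members. Of 22 tested regulators, 2 were called lower and 1 higher in EpRas cells without TGF-β, near or under the 9.11% and 8.45% of all tested genes, and 7 were lower and 2 higher with TGF-β, beside 12.3% and 8.92%. Their medians were -0.25 and -0.30, and 5 of the 22 reached 5 FPKM in EpH4 libraries only and 1 (Rfxank) in EpRas libraries only. Irf1, an interferon-induced transcription factor, had 50.8 and 53.9 FPKM in untreated EpH4 and 30.2 and 25.8 FPKM in untreated EpRas cells (-0.88 ± 0.15, adjusted p = 0.00761), and with TGF-β 85.3 and 79.7 FPKM against 32.3 and 33.8 FPKM (-1.29 ± 0.15, adjusted p = 0.00105). The lines did not overlap for Irf1.

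Rfx5, the RFX subunit that binds the X1 box, was not called (-0.38 ± 0.18, adjusted p = 0.191, and -0.61 ± 0.18, adjusted p = 0.0516), although it passed with TGF-β when no filter was set (adjusted p = 0.0483). Rfxank, another subunit of the same complex, was called higher in untreated EpRas cells with no filter (0.87 ± 0.13, adjusted p = 0.0106). Irf7, a mediator of type I interferon responses that reached 5 FPKM in EpH4 libraries only, had -1.74 ± 0.28 with TGF-β (adjusted p = 0.0104 with no filter). Of 11 tested genes of interferon receptors and proximal signalling, 2 were called higher and 2 lower without TGF-β, beside 8.45% and 9.11% of all tested genes, and 0 higher and 2 lower with it, beside 8.92% and 12.3%. Usp18, 1 of the 11, reached 5 FPKM in EpH4 libraries only. Ifngr2, one chain of the interferon-γ receptor, was -0.86 ± 0.15 (adjusted p = 0.00768) and Ifngr1, the other, 0.64 ± 0.17 (adjusted p = 0.0377) without TGF-β.

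Of the 24 interferon-stimulated genes, 10 were tested, and 6 of these (Cxcl10 and Oasl2 among them) reached 5 FPKM in EpH4 libraries only, so that no count or median of this list is read as a difference of the lines. Bst2, which encodes tetherin, was -1.77 ± 0.29 (adjusted p = 0.00642) and Cxcl10, a chemokine, -1.74 ± 0.13 (adjusted p = 0.00113 with no filter) without TGF-β. Both are named for the size of their difference among the called genes and do not stand for the list. In this comparison 5 of the 10 tested genes were not called, beside 7502 of all 9100 tested genes. Of the class II genes, 2 of 8 were tested, and Cd74, the invariant chain, which reached 5 FPKM in EpH4 libraries only, was called lower in both conditions with no filter (-1.77 ± 0.13, adjusted p = 0.00116, and -4.41 ± 0.13, adjusted p = 5.65e-05). Ciita, the class II counterpart of Nlrc5, was listed at 0 in 7 of the 8 untransfected libraries and at 0.0307 FPKM in 1 untreated EpRas library.

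Epithelial marker transcripts moved with the same comparisons. Of the 10 epithelial markers, 5 were called lower and 1 higher in EpRas cells without TGF-β, beside 9.11% and 8.45% of all tested genes. With TGF-β, 7 were called lower and 1 higher, beside 12.3% and 8.92%. Krt19 reached 5 FPKM in EpRas libraries only and so entered the test through the line in which it was high. With no filter, Krt19 was called higher in both conditions (limma, adjusted p = 0.000222 and 0.000244). The summed level of the 10 markers was 5841 and 7247 FPKM in untreated EpH4, 9783 and 10385 FPKM in treated EpH4, 4378 and 5592 FPKM in untreated EpRas and 2713 and 4626 FPKM in treated EpRas libraries. Of 6 stromal fibroblast markers, 2 were tested (Col1a1 and Col1a2), both of which reached 5 FPKM in EpH4 libraries only. With no filter, both were called lower in EpRas cells in both conditions (adjusted p = 0.000748 and 6.66e-05 for Col1a1, and 0.0101 and 0.000268 for Col1a2) and higher with TGF-β in EpH4 cells (0.00104 and 0.00449). Pdgfra, which was not tested, stood the other way, with 0.668 and 0.986 FPKM in untreated EpH4 and 2.33 and 3.16 FPKM in untreated EpRas libraries. The 6 markers summed to 21.7 to 25.8 FPKM in untreated and 214 to 239 FPKM in treated EpH4 libraries. In untransfected EpRas libraries they summed to 4.61 to 5.76 FPKM. In the siRNA libraries of EpRas cells, which come from the other table, the sums reached from 4.42 to 33.0 FPKM. Of the 6 markers, 3 (Dcn, Lum and Thy1) were at 0 in every EpH4 library. The part of either list in the values of the class I genes was not tested.

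TGF-β was added to each line to follow its effect. In EpH4 cells, the 2 libraries with TGF-β lay above the 2 untreated libraries for each of the 8 tested members, beside 30.2% of all tested genes that were higher without overlap. Tapbp and Tap1 were called higher, beside 6.48% of all tested genes, and the median of the 8 members was 0.69, beside -0.016 for all tested genes. Tapbp was 1.38 ± 0.30 higher (adjusted p = 0.0322, 2.61-fold by the mean FPKM) and Tap1 0.94 ± 0.17 higher (adjusted p = 0.0163, 2.08-fold). Leaving out any 1 of the 4 EpH4 libraries ended both calls (adjusted p 0.0733 to 0.159 for Tap1 and 0.109 to 0.200 for Tapbp), as did, for Tapbp, the replicate block (0.062) and the fit with no filter on low values (0.0592).

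The remaining 6 members had differences of 0.48 to 0.76 in EpH4 cells that did not pass the threshold. H2-K1 had 0.76 ± 0.20 (adjusted p = 0.061), Psmb8 0.76 ± 0.25 (adjusted p = 0.111), B2m 0.61 ± 0.27 (adjusted p = 0.226), Psmb9 0.54 ± 0.24 (adjusted p = 0.232), Tap2 0.54 ± 0.24 (adjusted p = 0.225) and H2-D1 0.48 ± 0.17 (adjusted p = 0.138). In a fit of the EpH4 libraries alone, H2-K1 and Psmb8 passed as well (adjusted p = 0.0198 and 0.0324). Called higher in the same comparison were Irf1 (0.65 ± 0.15, adjusted p = 0.0383) and Tapbpl (1.58 ± 0.17, adjusted p = 0.00143). With no filter, Irf7 (1.78 ± 0.28, adjusted p = 0.0203) and Oasl2, an interferon-stimulated gene (1.86 ± 0.11, adjusted p = 0.0011), were called higher as well.

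In EpRas cells, 0 of the 8 members were called with TGF-β by limma or by the Tukey-Kramer test on FPKM, beside 3.82% of all tested genes by limma. At an unadjusted p under 0.05 there were 2 (H2-K1 and Psmb8), beside 15.8% of all tested genes, and the median of the members was 0.00035, beside -0.019 for all tested genes. H2-K1 was 0.72 ± 0.20 (adjusted p = 0.13), and without the second TGF-β-treated library it was 0.98 (adjusted p = 0.0368). Psmb8 was 0.60 ± 0.25 (adjusted p = 0.299), and Tap1 was -0.37 ± 0.17 (adjusted p = 0.363). For H2-K1 and Psmb8 both treated libraries were above both untreated ones and for Tap1 both were below, beside 18.5% of all tested genes higher and 20.9% lower without overlap.

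The difference between the effects of TGF-β in the lines was tested directly, and 0 of 8 members were called by limma (2 at an unadjusted p under 0.05), beside 0.802% of all tested genes called and 10.9% at an unadjusted p. The estimates for the 8 members lay between -1.45 and -0.04, so that each was lower in EpRas cells, although those of B2m, H2-K1 and Psmb8 changed sign under some alternatives. Tap1 had -1.31 ± 0.24 (adjusted p = 0.0729) and Tapbp -1.45 ± 0.43 (adjusted p = 0.260), and for H2-K1 the difference was -0.04 (95% confidence interval -0.72 to 0.63).

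The siRNA libraries were used to ask how the same genes stood after knockdown of Etv4 and Etv5 in EpRas cells. The targets were lower in every knockdown library. Etv4 had 57.4 FPKM with siNC, 11.6 with pair 1 and 27.9 with pair 2 in untreated cells, and 64.3, 12.6 and 18.9 FPKM with TGF-β. Etv5 had 8.85, 1.61 and 1.26 FPKM without and 5.34, 1.24 and 1.20 FPKM with TGF-β. With 1 library for each condition these comparisons have no replicate test, and the ratio of the mean of both pairs to siNC is given. Of the 9 members, 6 reached 5 FPKM in this table, and Psmb8, Psmb9 and Nlrc5 did not.

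Without TGF-β, 0 of these 6 members reached a 2-fold difference from siNC, beside 9.07% of the 9094 tested genes. With TGF-β 1 did (Tap2), beside 8.39%. Where both pairs had to differ from siNC by at least 1.5-fold in the same direction, the count was 2 without (B2m lower and Tap2 higher) and 0 with TGF-β, beside 16.4% and 14.4% of all tested genes. Tap2 had 6.18 FPKM with siNC, 12.9 with pair 1 and 10.2 with pair 2 in untreated cells, and 7.06, 18.9 and 9.80 FPKM with TGF-β. Both pairs were above siNC in both conditions, with ratios of the mean of 1.87 and 2.03, and the second was under 2-fold with 1 FPKM added or with median-ratio scaling. In an additive fit over the 6 libraries, in which different conditions stand in for replicates, the knockdown term of Tap2 was 0.83 ± 0.27 (limma, adjusted p = 0.149).

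B2m had 244 FPKM with siNC, 161 with pair 1 and 110 with pair 2 in untreated cells, and 229, 240 and 168 FPKM with TGF-β. Both pairs were below siNC without TGF-β (0.554 of siNC by their mean), and they lay on either side of it with TGF-β. Tapbp had 73.9, 48.9 and 51.9 FPKM without and 81.7, 106 and 66.9 FPKM with TGF-β. As for B2m, both pairs were below siNC for Tapbp in untreated cells only.

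Tap1 had 5.34 FPKM with siNC, 12.5 with pair 1 and 4.74 with pair 2 in untreated cells, so that 1 pair stood apart from the other, and 4.19, 5.42 and 5.20 FPKM with TGF-β. H2-K1 had 37.2, 45.1 and 45.9 FPKM without and 55.2, 50.8 and 54.0 FPKM with TGF-β, and H2-D1 had 186, 172 and 188 FPKM without and 189, 124 and 176 FPKM with TGF-β. H2-K1 stayed within 1.22-fold of siNC by the mean of the pairs, and H2-D1 was at 0.972 and 0.794 of siNC. Both pairs were on the same side of siNC for 4 of the 6 members in each condition, beside 75.9% of all tested genes without and 75.3% with TGF-β.

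**Figure D5:**
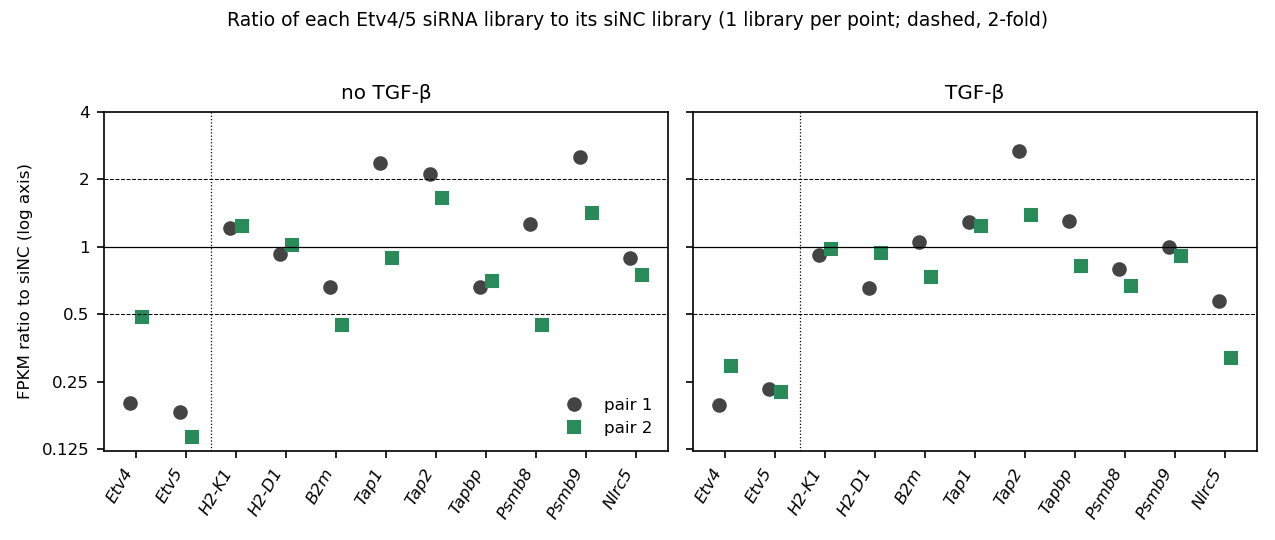
Ratio of the FPKM in each Etv4/5 siRNA library to siNC of the same treatment (log axis, dashed lines at 2-fold), for the siRNA targets left of the dotted line and the 9 members right of it. Each point is 1 library, circles for pair 1 and squares for pair 2, and the targets lie between 0.142 and 0.485, whereas most members lie within 2-fold of siNC.

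The members under the level filter in EpRas cells stayed low in every siRNA library. Psmb8 had 0.922 FPKM with siNC, 1.16 with pair 1 and 0.414 with pair 2 in untreated cells (7, 12 and 4 reads), and 2.88, 2.29 and 1.92 FPKM with TGF-β (38, 24 and 18 reads). Psmb9 had 1.11, 2.79 and 1.58 FPKM without (5, 17 and 9 reads) and 1.79, 1.78 and 1.62 FPKM with TGF-β (14, 11 and 9 reads). All 6 libraries were thus far below the level of any EpH4 library, although the tables come from separate runs and such levels are set side by side only. The reads with both pairs against siNC gave ratios of 0.869 (0.338 to 2.50) without and 0.735 (0.463 to 1.17) with TGF-β for Psmb8, and of 1.98 (0.747 to 6.59) and 0.951 (0.457 to 2.03) for Psmb9, so that no difference was detectable at this depth.

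Nlrc5 had 0.379 FPKM with siNC, 0.338 with pair 1 and 0.282 with pair 2 in untreated cells (19, 23 and 18 reads), and 0.505, 0.290 and 0.161 FPKM with TGF-β (44, 20 and 10 reads). Both pairs were below siNC in both conditions. The ratio of the reads was 0.820 (0.466 to 1.5) without and 0.454 (0.275 to 0.738, counting error only) with TGF-β.

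The knockdown term and the TGF-β term of the additive fit each gave 0 calls among the 6 tested members (limma, 1 and 0 at an unadjusted p under 0.05), beside 2.12% and 2.50% of all tested genes called and 22.7% and 17.8% at an unadjusted p. Their medians were -0.05 and 0.27, beside 0.03 and 0.0020 for all tested genes. With TGF-β, H2-K1 and Tapbp were higher in each of the 3 siRNA conditions (1.48, 1.13 and 1.18 times for H2-K1 and 1.11, 2.17 and 1.29 times for Tapbp), beside 23.5% of all tested genes. Psmb8 was also higher in each of them, with 80 reads in the 3 treated against 23 in the 3 untreated libraries (2.90-fold, 1.80 to 4.83, counting error only).

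The genes with levels most like the average of the members were sought by Pearson's r, across the 8 untransfected libraries, with the mean of the standardized levels of the 8 tested members. The 8 points fall into 2 lines that share culture conditions, so that r is a description of these libraries. The members did not share 1 pattern, although Tap1, Tap2, Tapbp, Psmb8 and Psmb9 had r of 0.82 to 0.99 with one another. Among the chains, H2-K1 had r = 0.72 with B2m and 0.64 with H2-D1, and H2-D1 had 0.20 with B2m. Across these libraries the levels of H2-D1 had r = -0.59 with Psmb8 and -0.61 with Psmb9, H2-K1 had -0.41 with Tap2, and B2m had -0.08 to 0.12 with the 5 transport and proteasome genes. The mean of the members was highest in the treated EpH4 libraries (0.92 and 0.93) and lay between -0.58 and -0.13 in the other 6. Among 4111 other tested genes that varied by at least 1 on the log2 scale, Enho (r = 0.997), Il18r1 (0.994), Mmp14 (0.988), Ppm1j (0.988) and Nuak1 (0.988) were the most alike in these libraries, and Lyar and Lbh (both -0.986), Mcpt8 (-0.984), Rbmx (-0.975) and Gemin6 (-0.974) the most opposed.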

How the data were processed

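The 8 untransfected and 6 siRNA libraries were those described above (2 biological replicates per untransfected group, 1 library per siRNA condition). The authors prepared strand-preserving libraries from polyA RNA for the Ion Proton sequencer. TopHat2 (2.0.11) and Bowtie2 (2.2.2.2) placed reads on mm10, and Cuffdiff of Cufflinks 2.2.0 gave the values (versions from the submitters' processing notes). The tables deposited by the authors give FPKM per gene and library with Cuffdiff's own limits, and the 2 tables were made separately, so tests stayed within a table. No per-sample column was left unused (0). FPKM is a relative level, and where libraries are scaled by their total, a few high genes lower all others. As deposited, the median log2 ratio of a library to the mean of its table lay between -0.019 and 0.023. Which scaling Cuffdiff applied between libraries was not tested. Total depth is not given, and relative depth and reads (tolerance 0.02 of a read) were recovered from the steps of low values.

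Genes without Cuffdiff's OK status (3 and 2) were left out. Genes with a maximum of at least 5 FPKM (9100 and 9094) entered a limma fit (3.58.1, under R 4.3.3) of log2(FPKM + 1), with all 4 groups in 1 fit, no block, and Benjamini-Hochberg adjustment over all genes tested. Positions and promoters came from RefSeq (GRCm38.p6) and overlaps from GENCODE on GRCm38. Scripts were tested on simulated data. Python 3.11.15 with scipy 1.17.1 was used. The members, the gene lists and the tests were chosen with earlier results of these data known. All 9 members are named. From each other list at most the 3 called genes with the largest difference in the untreated comparison of the lines and at most 2 in each other comparison could be named, besides Irf1, Rfx5, Psmb10, Psmb5, Psmb6, Psmb7, H2-T23, Erap1, Ciita, Etv4 and Etv5. Some genes of the lists are counted but not reported here by name. Alternatives were other pseudocounts, filters, scalings, a moderated variance with trend, a replicate block, fits without 1 library or with only the groups compared, and the Tukey-Kramer test. The samples of a group share a cell line, so p-values measure the spread between cultures of these lines.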

Additional observations from a re-analysis of the deposited data

Results flagged for a closer look

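No member had a called difference between the effects of TGF-β in the lines (limma, EpRas minus EpH4 on the log2 scale). Called were 7 genes of the lists described beside them, and 0.802% of all tested genes. The lists with a called gene held 2 tested class II genes, 11 of interferon receptors and signalling and 10 interferon-stimulated genes. They also held 2 tested stromal, 2 leukocyte and 10 epithelial markers. The lists of other heavy chains, loading genes, proteasome genes and regulators gave 0 calls. Cd74 (-2.65, adjusted p = 0.00608) belongs to the class II list, Usp18 (-1.71, adjusted p = 0.0293) and Oasl2 (-1.44, adjusted p = 0.0358) to the interferon lists. Col1a1 (-3.12, adjusted p = 0.00729), Col1a2 (-2.23, adjusted p = 0.0177) and Csf1r (-2.0, adjusted p = 0.0172) were on the lists of stromal and leukocyte markers, and Krt7 (-1.87, adjusted p = 0.0491) on the epithelial list. Except for Krt7, each of these genes reached 5 FPKM in EpH4 libraries only and so entered the test through the line in which it was high. With no filter on low values these 6 were called too (adjusted p from 0.0115 for Cd74 to 0.037 for Usp18). In each of the 7 the difference between treated and untreated cells was more positive in EpH4 than in EpRas cells. Csf1r had 0.185 and 0.103 FPKM in untreated and 6.23 and 5.74 FPKM in treated EpH4 cells, while Ptprc stayed at 0.

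After knockdown of Etv4 and Etv5, both siRNA pairs lay above siNC for H2-K1 without TGF-β (1.22 of siNC by their mean) and below it with TGF-β (0.949 of siNC), and the same held for Psmb9 (1.96 without and 0.948 with TGF-β). Each condition had 1 library, and the difference was not tested. The reads of Psmb9 behind these ratios were 5, 17 and 9 without and 14, 11 and 9 with TGF-β.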

How the results depend on the processing

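The number of called members without TGF-β was 4 of 8 and lay between 3 and 6 with 1 library left out. With TGF-β it was 5 of 8 (5 to 6 with 1 library left out), and 3 of 6 where a mean of at least 10 FPKM was required, which removed Psmb9 and Tap1. For TGF-β in EpH4 cells the number was 2, against 1 with no filter, 1 with a mean of at least 10 FPKM, 1 with the replicate block, 4 with only these groups in the fit, and 0 to 4 with 1 library left out (0 without any 1 EpH4 library). For TGF-β in EpRas cells it was 0, and 0 to 1 with 1 library left out. The difference of the TGF-β effects and both terms of the siRNA fit gave 0 in each alternative run. Replicate numbers did not pair the libraries (correlations of the replicate differences -0.35 to 0.08). With the replicate block, 3 members were called without and 5 with TGF-β between the lines, 0 for TGF-β in EpRas cells and 0 for the difference of the effects. With crossed numbers, chosen after seeing the data, 5 were called between the untreated lines and 0 for TGF-β in EpRas cells. At 2-fold, the count of members after knockdown without TGF-β was 0, against 2 with pair 1 alone, 1 with pair 2 alone and 2 where both pairs had to reach 1.5-fold. With TGF-β it was 1, against 0 with pair 2 alone, 0 at 1.5-fold in both pairs, 0 with 1 FPKM added and 0 with median-ratio scaling. Of 804 values of single members under an alternative, 746 kept their side of the threshold and direction, 17 newly passed it, 18 no longer did, and 23 changed sign with neither value past it. Of these, 22 left out 1 library. The ranges with 1 library left out then spanned 0 between the lines for B2m (-0.043 to 0.39 without and -0.38 to 0.30 with TGF-β) and H2-D1 (-0.033 to 0.29 with TGF-β). They did so for TGF-β in EpRas cells for H2-D1 (-0.19 to 0.13), Tap2 (-0.19 to 0.26), Tapbp (-0.49 to 0.34) and Psmb9 (-0.40 to 0.036), for the difference of the effects for H2-K1 (-0.31 to 0.22), B2m (-0.56 to 0.13) and Psmb8 (-0.49 to 0.16, and 0.14 with a pseudocount of 0.1 FPKM), and in the siRNA libraries for the knockdown term of H2-K1 (-0.075 to 0.28) and Tapbp (-0.54 to 0.043) and the TGF-β term of Tap2 (-0.047 to 0.46). Where 1 library was left out, the remaining library of its group was taken to vary like the other groups. The causes of these changes were not tested.

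Each untransfected group had 2 libraries, and each siRNA condition 1. Depth limits Nlrc5 in all libraries and Psmb8 and Psmb9 in EpRas cells, where they rested on 1 to 44 reads. For the other 6 members the number of reads was not recovered.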
